A study of Homo sapiens with 18 samples.

Results

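The comparison set 2 human embryonic stem cell lines side by side in their unedited state: H9 (WA09) wild type against H1 (WA01) wild type, 3 numbered libraries of each, 6 of the 18 libraries in the series. Both are established lines, each derived from 1 embryo, so that every difference given here is a difference between 1 line and 1 other line. The series asked what the zinc finger protein ZNF263 does in pluripotency, with Cas9 knockout clones of both lines as its test samples and these wild-type cells as their controls. Per the labels, poly(A) RNA was selected from TRIzol extracts of all samples and made into libraries with a NEBNext Ultra II kit; no treatment, medium, passage or feeder layer is named. The labels do not say whether the 3 libraries of a line came from separate cultures, so p-values measure the spread between these samples, which may be technical. No date or sequencing run is given either, and the counts of the 2 lines were deposited in separate tables, so line and batch cannot be told apart. Genes on X and Y were left out. ZNF263 itself was at 41.9, 46.8 and 45.1 CPM (counts scaled to a common library size) in H9 and at 42.8, 44.3 and 41.9 CPM in H1, with no call between the lines (log2 fold change 0.05, edgeR adjusted p = 0.569).

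Human embryonic stem cells keep the ability to form all tissues of the embryo through a circuit of transcription factors centred on OCT4 (POU5F1), SOX2 and NANOG, held up by FGF and activin signals from the medium. Lines grown from different embryos carry different genomes, and they also differ in epigenetic states gained in derivation and culture, such as imprints and silenced promoters, and in how readily they enter a given germ layer. Pluripotent cells are known for a weak interferon response: in most cells, RIG-I and MDA5 sense double-stranded RNA in the cytosol and set off interferon genes, and secreted interferon acts through its receptor and transcription factors on short promoter elements of a shared battery of antiviral genes.

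Library totals were 14156770 to 15996191 counts in H9 and 12343163 to 15323576 in H1, and the limit used for a gene with none, 3 counts over the 3 libraries of a line, corresponds to 0.0686 CPM in H9 and 0.0757 CPM in H1. The first principal component of log2 CPM carried 79.9% of the variance and separated the lines, and no pair of libraries within a line agreed within counting noise (chi-square per gene 1.92 to 5.07). Several classes of RNA that poly(A) selection should deplete moved with line: small nucleolar RNA genes took 354 to 397 CPM of all counts in H9 and 208 to 236 in H1, and the mitochondrial ribosomal RNAs took 1.06 to 1.17% of counts in H9 and 0.663 to 0.808% in H1. Replication-dependent histone genes, whose main RNA also lacks the tail, summed to 41.6 to 42.5 CPM in H9 and 50.5 to 55.5 CPM in H1. The part these shifts play in other differences was not tested. In bulk RNA, fewer cells of a type and less RNA per cell cannot be told apart.

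The lines differed at most genes, mostly by little. Of 14410 autosomal and mitochondrial genes with enough counts to test, 7822 passed an adjusted p of 0.05 in edgeR (quasi-likelihood F test, p-values adjusted by Benjamini and Hochberg; 54.3%), 4134 of them higher in H9 (28.7%) and 3688 lower (25.6%). The median log2 fold change, H9 over H1, was 0.01, and 58.1% of the called genes differed by less than 0.5 on the log2 scale. At 2-fold or more, 705 genes were higher in H9 (4.89%) and 339 were lower (2.35%), 1044 in all (7.24%). In 8525 genes (59.2%) the 3 H9 libraries did not overlap the 3 H1 libraries. Counts of called list members given below are to be read against these shares.

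**Figure D1:**
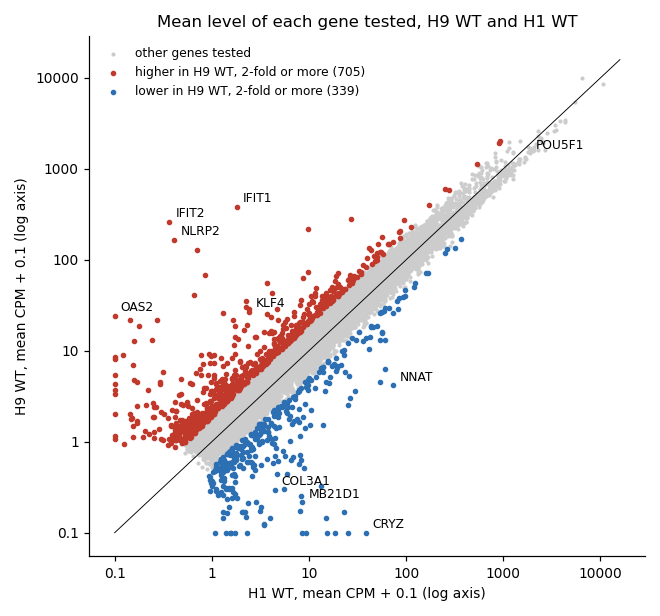
Mean level of each gene tested in H9 WT (vertical, CPM + 0.1, log axis) and H1 WT (horizontal, same scale), with the genes called at 2-fold or more in colour and 10 genes named. Most of the 14410 genes lie near the diagonal, while OAS2, IFIT1, IFIT2 and NLRP2 lie far above it and CRYZ, NNAT, COL3A1 and MB21D1 below it.

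Antiviral genes were among those furthest apart. Of 42 interferon-induced genes and RNA sensors listed, 41 were in the files and 33 passed the count filter; 27 of the 33 were higher in H9, 19 of them by 2-fold or more, 2 were lower and 4 were not called, against 28.7% higher and 25.6% lower among all genes. The list's median log2 fold change was 1.06 (also with OAS2, which had no count in H1, put at its lower bound), against 0.01 over all genes, and its summed level was 2049 to 2346 CPM in H9 and 549.5 to 590.8 CPM in H1. Promoters of this battery carry the interferon-stimulated response element, whose core was searched as GAAANNGAAA on both strands in the 250 bases before each gene's start (RefSeq sequence, build GRCh38.p14, which differs from the hg19 build of the counts). The element is shown here, in capitals, for 4 genes that stood among the widest apart, each window read 5′ to 3′ in the direction of the gene:
IFIT1 (chr10:89392373-89392622, plus strand): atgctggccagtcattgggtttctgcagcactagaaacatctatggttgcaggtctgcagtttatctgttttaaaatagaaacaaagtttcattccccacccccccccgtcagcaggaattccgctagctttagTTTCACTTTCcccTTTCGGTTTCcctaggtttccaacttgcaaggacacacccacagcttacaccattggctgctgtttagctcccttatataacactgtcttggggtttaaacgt
ISG15 (chr1:1013247-1013496, plus strand): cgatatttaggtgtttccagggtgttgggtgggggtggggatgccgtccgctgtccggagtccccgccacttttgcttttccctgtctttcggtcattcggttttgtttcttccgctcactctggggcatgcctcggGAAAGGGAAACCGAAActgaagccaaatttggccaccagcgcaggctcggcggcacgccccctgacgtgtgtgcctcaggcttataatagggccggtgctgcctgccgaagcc
IFIH1 (chr2:162318685-162318934, minus strand): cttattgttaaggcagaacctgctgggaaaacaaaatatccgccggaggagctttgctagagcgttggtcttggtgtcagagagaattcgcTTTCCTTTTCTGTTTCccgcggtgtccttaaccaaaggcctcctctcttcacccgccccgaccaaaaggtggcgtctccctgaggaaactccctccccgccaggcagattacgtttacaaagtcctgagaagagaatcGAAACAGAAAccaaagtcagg
IFI44 (chr1:78649539-78649788, plus strand): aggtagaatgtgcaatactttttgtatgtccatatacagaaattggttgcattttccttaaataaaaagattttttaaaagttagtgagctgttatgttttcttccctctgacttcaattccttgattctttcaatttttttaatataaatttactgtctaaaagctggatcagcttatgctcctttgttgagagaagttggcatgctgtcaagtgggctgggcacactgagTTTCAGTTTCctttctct
In IFIT1 the matches lay 116 to 107 and 103 to 94 bases before the start, in ISG15 at 113 to 104 and 107 to 98 (overlapping), in IFI44 at 18 to 9, and in IFIH1 at 159 to 150 and 153 to 144 (overlapping) and at 21 to 12. Windows were held for 11327 of the genes tested (78.6%), under 4 in 5, so the shares below describe those genes only. A match stood in 11 of 14 windows of list members at 2-fold or more higher (78.6%) and in 2 of 9 windows of the other tested members (22.2%), against 259 of 11327 windows of all genes tested (2.29%) and 839 of 27305 RefSeq windows in all (3.07%). The 2 were ISG20 (log2 fold change 0.95) and IFITM1 (0.88), called higher in H9 by less than 2-fold. Members without a match, such as IRF9 (0.79), were also called higher, and no member lower in H9 had a window. Outside the interferon and antigen-presentation lists, 20 of 422 windows of genes 2-fold or more higher held one (4.74%), and 5 of 247 windows of genes 2-fold or more lower did (2.02%). Of the 14, the windows of OAS1, DDX58 and MX1 held no match to this pattern. Other spacings of its GAAA repeats were not searched, and GAAACGAAA, with a shorter gap, stands in the OAS1 and DDX58 windows.

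Among the effectors, IFIT1, which binds viral RNA with foreign cap structures, was at 352, 365 and 433 CPM in the H9 libraries, against 1.35, 1.91 and 1.9 CPM in the H1 libraries (log2 fold change 7.78 ± 0.11 SE, edgeR adjusted p = 2.68e-42). IFIT2, its partner in the same complex, was at 234, 264 and 287 CPM in H9 and 0.0845, 0.409 and 0.305 CPM in H1 (log2 fold change 9.83 ± 0.15 SE, edgeR adjusted p = 1.08e-41). The groups lay more than 2 orders of magnitude apart in both genes, in every pairing of an H9 with an H1 library. OAS2, which makes the 2′-5′-linked oligoadenylate that switches on RNase L, was at 24.3, 20.4 and 27.3 CPM in H9 and had no count in any H1 library, which makes it at least 319-fold higher in H9 with the floor of 3 counts over the H1 group. OAS1, of the same family, had 393 counts over the H9 group and 1 over the H1 group, a ratio of 356 (95% counting interval 63.6 to 14111), and IFI44 had 961 counts in H9 and 2 in H1, a ratio of 436 (120.3 to 3603). Every H9 library stood above every H1 library in these 5 genes, which are among the furthest apart on the list, as the lines did not overlap in 59.2% of all genes.

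The further members are named by role and were chosen after their values were seen. ISG15, a ubiquitin-like protein joined to many targets, was at 212, 204 and 246 CPM in H9 and 9.8, 9.82 and 9.29 CPM in H1 (log2 fold change 4.52 ± 0.08 SE, edgeR adjusted p = 5.49e-38). Both sensors of viral RNA were higher: IFIH1 (MDA5) was at 62.4, 63.3 and 76.2 CPM in H9 and 0.338, 0.341 and 1.6 CPM in H1 (log2 fold change 6.46 ± 0.18 SE, edgeR adjusted p = 2.89e-31), with the third H1 library above the other H1 libraries. DDX58 (RIG-I) was at 68.3, 71.5 and 80.3 CPM in H9, against 8.62, 8.59 and 12 CPM in H1 (log2 fold change 2.91 ± 0.10 SE, edgeR adjusted p = 1.06e-27). STAT2 and IRF9, transcription factors that carry the interferon signal, differed far less than these targets, with log2 fold changes of 0.39 and 0.79, both called. IFNL1, a type III interferon, was itself read at 7.37, 7.45 and 10.6 CPM in H9 and had no count in the 3 H1 libraries, at least 113-fold higher in H9.

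The battery was not raised as a whole. IFITM2, IFI16, IFI35 and TLR3 were not called, with log2 fold changes of -0.04, 0.24, 0.14 and 0.00. The 8 listed genes below the count filter, IFI27, IFI44L, RSAD2, GBP1, GBP2, XAF1, SAMD9L and TMEM173 (STING), were at most at 1.11 CPM in any of the 6 libraries, although several are textbook interferon targets. Both members lower in H9 were antiviral genes too. MB21D1 (cGAS), the cytosolic DNA sensor, was at 0.205, 0.146 and 0 CPM in H9, against 8.37, 8.66 and 8.37 CPM in H1 (log2 fold change -6.10 ± 0.34 SE, edgeR adjusted p = 1.92e-19). MX2, a dynamin-like GTPase that restricts HIV in human cells, was at 5.11, 2.85 and 4.88 CPM in H9 and 11.6, 7.09 and 9.52 CPM in H1 (log2 fold change -1.11 ± 0.18 SE, edgeR adjusted p = 1.12e-06), while its sister MX1 was higher in H9 (log2 fold change 1.94).

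**Figure D2:**
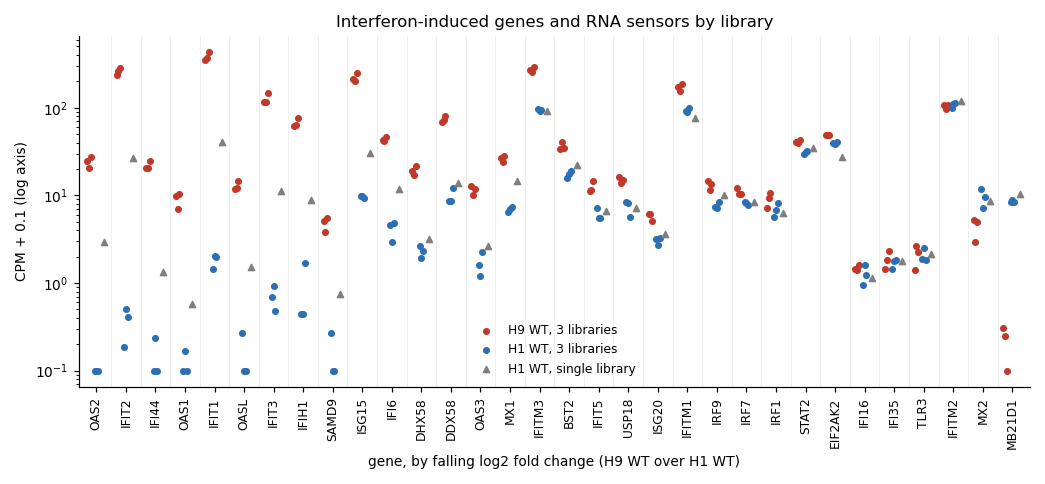
Level of 32 of the 33 tested interferon-induced genes and RNA sensors in each library (CPM + 0.1, log axis), ordered by log2 fold change, with the 3 H9 WT libraries left, the 3 H1 WT libraries beside them and the single H1 WT library as a triangle. From OAS2 to SAMD9 the H9 libraries stand far above the H1 libraries with the single library between them, and MB21D1, at the right end, stands the other way.

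A further H1 wild-type library, deposited without a replicate number and kept out of the fit, placed the H1 side of this difference at another height. It lay below every H9 library in 19 of the 19 genes at 2-fold or more, next to 96.2% of all 705 genes so called, and above all 3 numbered H1 libraries in 16 of the 19, next to 39.3% of the 705. For the 9 genes with log2 fold changes of 5 or more it reached 5.27 to 13.99% of the H9 mean (median 10.5%), where the numbered H1 libraries had a median of 0.442%. IFIT1, for one, was at 40.3 CPM in it, and adding it to the fit lowered the log2 fold changes of IFIT1 and IFIT2 to 5.20 and 5.41, both still called. Over all 705 genes at 2-fold or more higher in H9 its median was 38.8% of the H9 level, next to 39.8% in the numbered H1 libraries. The antiviral genes were thus read at more than 1 level in H1 wild-type cells. Counts of the single library were deposited in another table than those of the numbered H1 libraries. How this library otherwise differs from the other 3 is not stated.

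The antigen-presentation list went the same way by smaller steps. Of 31 tested members of the MHC list, 22 were higher in H9, 14 of them by 2-fold or more, none was lower and 9 were not called, with a median log2 fold change of 0.97. B2M, the light chain of every class I molecule, was at 122, 139 and 139 CPM in H9 and 40.6, 42.8 and 40.4 CPM in H1 (log2 fold change 1.69 ± 0.07 SE, edgeR adjusted p = 7.03e-25). HLA-C was at 566, 627 and 606 CPM in H9, against 247, 259 and 247 CPM in H1 (log2 fold change 1.26 ± 0.05 SE, edgeR adjusted p = 1.64e-23). TAP1, a subunit of the pump that loads peptides onto class I, was at 35.3, 41.4 and 43 CPM in H9 and 12.3, 10.1 and 12 CPM in H1 (log2 fold change 1.81 ± 0.10 SE, edgeR adjusted p = 9.57e-20). The lines did not overlap in these 3 genes, nor in 59.2% of all genes. The class II genes HLA-DQB1 (log2 fold change 2.83) and HLA-DRB1 (1.95) were higher as well, while HLA-DRA, their invariant partner CD74 and the class I regulator NLRC5 were not called (0.07, 0.03 and -0.02). HLA genes are both near-identical to one another and highly variable between people, so reads of either line may have been lost or shared in mapping to 1 reference genome.

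The core of the pluripotency network was read in both lines. Of 25 tested core genes, 7 were higher in H9, 11 were lower and 7 were not called (72.0% called, next to 54.3% of all genes), with a median log2 fold change of -0.13. POU5F1 was at 1454, 1567 and 1445 CPM in H9 and 1848, 1941 and 1840.3 CPM in H1 (log2 fold change -0.33 ± 0.05 SE, edgeR adjusted p = 6.24e-07). NANOG was lower too, at 45.1, 46.6 and 50.2 CPM in H9, against 78.6, 76.1 and 70.3 CPM in H1 (log2 fold change -0.66 ± 0.07 SE, edgeR adjusted p = 3.80e-11), while the single H1 wild-type library, at 48.7 CPM, read at the H9 level. SOX2, at 431, 405 and 421 CPM in H9 and 454, 454 and 453 CPM in H1, did not pass the threshold (edgeR adjusted p = 0.0587), and without the first H9 library it did. LIN28A, which blocks maturation of let-7 microRNAs, and DNMT3B, the de novo DNA methyltransferase, were lower in H9, with log2 fold changes of -0.26 and -0.51. The single H1 library read LIN28A at 1701 CPM, on the H9 side of the midpoint between the lines, and DNMT3B at 2015 CPM, on the H1 side. On the other side stood LEFTY1, a secreted inhibitor of NODAL and one of its targets, at 25.1, 31.3 and 29.5 CPM in H9 and 10.1, 10.3 and 8.07 CPM in H1 (log2 fold change 1.59 ± 0.11 SE, edgeR adjusted p = 2.20e-16), with its neighbour LEFTY2 (0.97) and the adhesion protein EPCAM (0.83). LEFTY1 and LEFTY2 are close copies, so reads may have been shared between them.

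Markers of the primed state, the state of conventional human lines, were 4 higher and 10 lower among 16 tested (median -0.25). Those of the naive state, which resembles the earlier blastocyst, were 7 higher and 1 lower among 10 tested (median 1.49), while 6 measured members did not reach the count filter and KLF17 had no count in any of the 6 libraries. KLF4, a reprogramming factor, was at 25.4, 25.4 and 28.9 CPM in H9, against 1.77, 2.46 and 2.74 CPM in H1 (log2 fold change 3.50 ± 0.14 SE, edgeR adjusted p = 1.67e-24). DNMT3L, the cofactor of the de novo DNA methyltransferases, was at 2.32, 2.19 and 2.47 CPM in H9 and 0.254, 0.205 and 0 CPM in H1 (log2 fold change 3.87 ± 0.47 SE, edgeR adjusted p = 2.86e-09), a low level in both. NLRP7 (2.79) and ALPPL2 (1.98) were higher, though the single H1 library read ALPPL2 at 3.57 CPM, on the H9 side of the midpoint between the lines. DPPA3, the other way, was at 0.477, 0.438 and 0.586 CPM in H9 and 2.45, 1.43 and 2.89 CPM in H1 (-2.13), with 0.752 CPM in the single H1 library. Summed over the measured list, naive markers made up 64.5 to 71.4 CPM in H9 and 21.2 to 23.1 CPM in H1.

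Transcripts driven by HERV-H, an endogenous retrovirus whose repeats act as promoters in human pluripotent cells, were split. Of 10 tested, 6 were higher in H9 by 2-fold or more, 1 was lower and 3 were not called, with a median of 1.29. SCGB3A2 was at 22.7, 25.7 and 28.4 CPM in H9, against 1.18, 1.02 and 1.45 CPM in H1 (log2 fold change 4.39 ± 0.16 SE, edgeR adjusted p = 8.52e-26). ABHD12B (2.40), HHLA1 (2.21) and LINC-ROR (1.87) followed. ESRG, a non-coding RNA used as a pluripotency marker, was at 1105, 943 and 1176 CPM in H9 and 1049, 939 and 1168 CPM in H1 and was not called (0.03), nor were LINC00458 (-0.04) and LINC00678 (0.05).

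Early neural genes were lower in H9. Of 19 tested members of the neuroectoderm list, 17 were lower, 15 of them by 2-fold or more, 1 was higher and 1 was not called, with a median log2 fold change of -1.76. SIX3, a forebrain and eye-field factor, was at 0.75, 0.512 and 0.586 CPM in H9, against 7.69, 8.8 and 7.31 CPM in H1 (log2 fold change -3.67 ± 0.24 SE, edgeR adjusted p = 6.65e-17). LHX2, which acts in the same field, was at 0.818, 0.438 and 0.326 CPM in H9 and 5.24, 8.18 and 5.79 CPM in H1 (log2 fold change -3.59 ± 0.29 SE, edgeR adjusted p = 2.76e-14). RAX (-2.80) and SIX6 (-3.57), also of the eye field, were lower, as was the neural determinant PAX6 (-1.76, chosen after its value was seen). The genes were read at low levels in both lines, and the lines did not overlap in the 4 eye-field genes, as in 59.2% of all genes. STMN2, a microtubule regulator of neurons, was the member that rose, at 22.5, 26 and 21.5 CPM in H9 and 3.38, 3.0 and 5.48 CPM in H1 (log2 fold change 2.56 ± 0.14 SE, edgeR adjusted p = 1.91e-19). The 15 genes were picked for standing high in the numbered H1 libraries. In the single H1 wild-type library 12 of them (80.0%) lay below all 3 numbered H1 libraries, next to 58.4% of all 339 genes lower by 2-fold or more, and 8 (53.3%) lay on the H9 side of the midpoint between the lines, next to 27.7% of the 339.

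Genes of the primitive streak were 1 higher, 5 lower and 5 not called of 11 tested (median -0.64), so that 54.5% were called, next to 54.3% of all genes. EOMES, a T-box factor needed for mesendoderm, was at 1.7, 1.75 and 1.24 CPM in H9, against 8.2, 7.84 and 7.23 CPM in H1 (log2 fold change -2.31 ± 0.20 SE, edgeR adjusted p = 3.06e-13). MIXL1, a homeobox gene of the same stage, was at 3.68, 4.53 and 2.6 CPM in H9 and 9.3, 9.89 and 9.74 CPM in H1 (log2 fold change -1.43 ± 0.17 SE, edgeR adjusted p = 8.45e-10). The single H1 wild-type library did not share these H1 levels: it read EOMES at 1.22 CPM and MIXL1 at 0.846 CPM, below every H9 library, and lay on the H9 side of the midpoint for all 5 genes called lower. With it added to the fit 3 of the 5 were called, EOMES and MIXL1 (-1.09) among them. WNT3 was the one higher (0.68). Among 8 tested endoderm markers, FOXA2 (-3.08) and SOX17 (-2.60) were lower, CXCR4 was higher (1.58), GATA6 was lower (-1.22, edgeR adjusted p = 0.0124) and 4 were not called. The share called, 50.0%, was near that of all genes. The GATA6 call was lost without the first or the second H1 library or the third H9 library, at log2 fold changes of -1.14 to -0.98. The single H1 library was on the H9 side for SOX17 and GATA6, at 0.094 and 0.188 CPM, and on the H1 side for FOXA2, at 3.48 CPM. Of 5 tested mesoderm markers ISL1 (3.47), BMP4 (1.05) and KDR (0.48) were higher and none was lower. Fibroblast and feeder markers moved in both directions, 6 higher and 3 lower of 12 tested, and their summed level was 893.8 to 967.5 CPM in H9 and 717.8 to 750.9 CPM in H1. COL1A1 (0.71), COL1A2 (0.49), TAGLN (0.76), COL5A1 (0.80), PDGFRB (0.67) and FBLN5 (0.90) were higher, and COL3A1 (-4.51), ACTA2 (-1.22) and VIM (-0.30) were lower. DCN, LUM and FAP of the same list had at most 5 counts over the 3 libraries of a line. The part of such cells was not tested.

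Some genes were on in 1 line and at the floor in the other. With at most 3 counts over the 3 libraries of 1 line and at least 5 CPM in every library of the other, 9 genes were on in H9 only and 9 in H1 only. The H9 side held OAS2, OAS1, OASL, IFI44 and IFNL1 of the antiviral genes, the zinc finger genes ZNF681 and ZNF717, and the non-coding SNORD116-21 and LINC00664. The H1 side held CRYZ, TYW3, TRIM4, ACOT2, CAT, CXCL11 and the zinc finger genes ZNF680, ZNF732 and ZNF248. CXCL11, an interferon-induced chemokine gene, thus stood the other way from the antiviral genes of the H9 side. It had 317 counts over the H1 group and 3 over the H9 group, a ratio of 117 (95% counting interval 39.5 to 568). CRYZ, a quinone reductase first known as zeta-crystallin, had no count in H9 and 39.7, 37.9 and 38 CPM in H1, at least 560-fold lower in H9. TYW3, the next gene on chromosome 1 and an enzyme of transfer RNA modification, had no count in H9 and 24.4, 23.3 and 26.7 CPM in H1, at least 361-fold lower. CAT, the peroxide-degrading enzyme catalase, had no count in H9 and 9.3, 7.71 and 7.92 CPM in H1, at least 120-fold lower. ZNF681 ran the other way, with 817 counts over the H9 group and 3 over the H1 group, a ratio of 247 (95% counting interval 84.2 to 1200). Just outside this group stood NLRP2, a NOD-like receptor family gene on the imprinted list, at 166, 161 and 170.1 CPM in H9 and 0.338, 0.136 and 0.457 CPM in H1 (log2 fold change 9.05 ± 0.14 SE, edgeR adjusted p = 3.78e-41).

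The promoter windows of CRYZ, NLRP2 and ZNF681 are printed with CpG dinucleotides, the sites of DNA methylation, in capitals, as the start regions of a gene off in H9 and of a pair off or near off in H1 (RefSeq, build GRCh38.p14):
CRYZ (chr1:74733051-74733300, minus strand): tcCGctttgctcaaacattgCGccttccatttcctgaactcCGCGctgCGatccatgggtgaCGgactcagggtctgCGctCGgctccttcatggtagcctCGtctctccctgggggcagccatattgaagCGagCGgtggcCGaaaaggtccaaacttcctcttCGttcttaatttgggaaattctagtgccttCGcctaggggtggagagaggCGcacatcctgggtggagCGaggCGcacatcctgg
NLRP2 (chr19:54966124-54966373, plus strand): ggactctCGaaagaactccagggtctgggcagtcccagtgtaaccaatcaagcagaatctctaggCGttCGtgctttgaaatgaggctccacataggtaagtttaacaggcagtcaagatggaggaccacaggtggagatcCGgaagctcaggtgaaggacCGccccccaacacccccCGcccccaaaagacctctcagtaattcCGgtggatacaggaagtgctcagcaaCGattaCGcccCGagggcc
ZNF681 (chr19:23758892-23759141, minus strand): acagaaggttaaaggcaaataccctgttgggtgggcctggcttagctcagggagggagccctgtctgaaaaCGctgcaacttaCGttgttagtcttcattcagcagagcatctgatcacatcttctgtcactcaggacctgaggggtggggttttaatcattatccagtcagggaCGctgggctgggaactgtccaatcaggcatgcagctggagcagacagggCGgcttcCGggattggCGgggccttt
They held 17, 10 and 6 CpG. Over the windows of all genes tested the median was 21, over 6 windows of genes on in H9 only it was 5, and over 6 windows of genes on in H1 only it was 12.5. DNA methylation was not measured here.

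**Figure D3:**
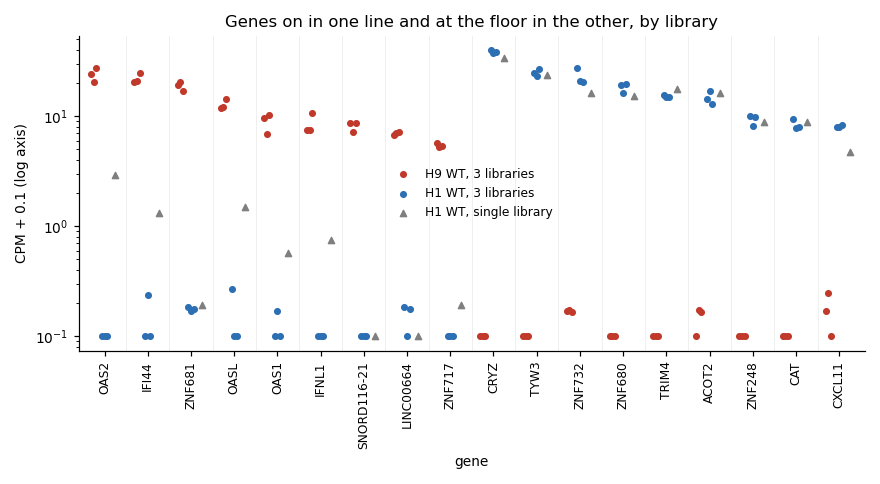
Level in each library (CPM + 0.1, log axis) of the 18 genes on in 1 line and at the floor in the other, H9-only genes left and H1-only genes right, with the 3 H9 WT libraries before the 3 H1 WT libraries and the single H1 WT library as a triangle. The single library lies with the numbered H1 libraries or near them for all H1-only genes and for ZNF681, SNORD116-21, LINC00664 and ZNF717, and above them for the 5 antiviral genes.

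Imprinted genes, read from 1 parental copy, were 14 higher, 11 lower and 11 not called of 36 tested (69.4% called), with a median of -0.02. NNAT, expressed from the paternal copy, was at 3.89, 4.75 and 3.52 CPM in H9, against 70.6, 78.2 and 73 CPM in H1 (log2 fold change -4.20 ± 0.10 SE, edgeR adjusted p = 5.93e-33). H19, a maternally expressed RNA, was at 0.0682, 0.0731 and 0.195 CPM in H9 and 2.28, 1.98 and 2.51 CPM in H1 (log2 fold change -4.19 ± 0.48 SE, edgeR adjusted p = 5.85e-10). DLK1 (-2.30) and MEST (-1.03), both paternally expressed, were lower, and the antisense RNA GNAS-AS1 was higher (2.36), with strand not stated for the counting. The single H1 wild-type library read DLK1 at 7.33 CPM, on the H9 side of the midpoint between the lines, and MEST at 254 CPM, on the H1 side. Clustered protocadherins, whose isoforms are chosen by promoter, were 15 higher and 8 lower of 51 tested. Their share called, 45.1%, was below the 54.3% of all genes. PCDHA6 was at 1.43, 1.46 and 1.37 CPM in H9, against 12.9, 13.5 and 14.6 CPM in H1 (log2 fold change -3.26 ± 0.17 SE, edgeR adjusted p = 3.38e-20), while PCDHA10, of the same cluster, was higher (1.11), although exons shared by the isoforms make their counts less certain.

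Genes 2-fold or more apart stood next to each other in places. Among genes tested, 22 runs of 3 or more neighbours on a chromosome were called at 2-fold or more in the same direction, 19 higher in H9 and 3 lower. Over all genes tested, 4.89% were higher and 2.35% lower by that much, and the number of runs was not tested against these shares. Some runs higher in H9 held only small nucleolar RNA genes, such as SNORD31, SNORD30 and SNORD29. The longest run was 7 genes on chromosome 10, FAS, CH25H, LIPA, IFIT2, IFIT3, IFIT1 and IFIT5, with log2 fold changes of 1.06 to 9.83. A run on chromosome 12 was OAS1, OAS3 and OAS2, and 1 on chromosome 19 was CDC42EP5, NLRP7 and NLRP2 (1.86 to 9.05). Zinc finger genes of chromosome 19 supplied a run lower in H9, ZNF880, ZNF528-AS1 and ZNF528, and a run higher in H9, ZNF667, ZNF667-AS1 and ZNF471 (1.04 to 3.22). ZNF471 lost its call with DESeq2 (log2 fold change 1.02) and without the third H9 library (0.83). Reads of the antisense genes cannot be told from those of their partners without a stated strand. By autosome, median log2 fold changes ran from -0.03 to 0.09. In band 20q11.21, whose gain is frequent in cultured stem cells, 4 of 20 tested genes were higher in H9, 5 were lower and 11 were not called. That is 45.0% called, next to 54.3% of all genes. Their log2 fold changes ran from -0.51 to 0.84, none at 2-fold, with a median of -0.06. Copy number was not tested.

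The matrix genes were mostly higher in H9. Of 36 tested collagens, laminins, fibrillins and fibronectin, 27 were higher, 3 were lower and 6 were not called (83.3% called). Their median was 0.64, and their summed level was 5436 to 5553 CPM in H9 and 3324 to 3391 CPM in H1. FN1, fibronectin, was at 379, 365 and 449 CPM in H9, against 176, 173 and 164 CPM in H1 (log2 fold change 1.22 ± 0.06 SE, edgeR adjusted p = 3.95e-21). COL12A1 (1.96) and COL9A3 (1.65) were among the furthest up. COL3A1, a fibrillar collagen, was at 0, 0.585 and 0 CPM in H9 and 4.39, 5.05 and 3.65 CPM in H1 (log2 fold change -4.51 ± 0.44 SE, edgeR adjusted p = 6.96e-12), with all H9 counts in the second library. The single H1 wild-type library, at 0.658 CPM, lay on the H9 side for it. COL3A1 also stands on the fibroblast list, whose summed level was higher in H9; the part of other cell types in the matrix genes was not tested.

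FGF signalling genes went both ways. Of 22 tested, 7 were higher in H9, 12 were lower and 3 were not called (median -0.34). The receptors FGFR3, FGFR4 and FGFR2 were higher, by 1.79, 0.70 and 0.66 on the log2 scale, with FGFR3 at 70.2, 58 and 69.6 CPM in H9 and 17.7, 19.8 and 19.8 CPM in H1 (log2 fold change 1.79 ± 0.08 SE, edgeR adjusted p = 3.43e-22). The ERK-induced feedback genes DUSP6, a phosphatase of ERK, ETV5, a transcription factor, and SPRY1, an inhibitor of receptor signals, were lower. DUSP6 was at 133, 149.8 and 137 CPM in H9, against 242, 249 and 247 CPM in H1 (log2 fold change -0.82 ± 0.06 SE, edgeR adjusted p = 2.04e-16). ETV5 and SPRY1 stood at -0.75 and -0.71, and the single H1 wild-type library lay on the H9 side of the midpoint for SPRY1, at 28.1 CPM. IER3, also induced by ERK and on the same list, was higher in H9 (0.98).

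Among genes of the stress responses of the endoplasmic reticulum and of translation, 13 were higher, 7 were lower and 4 were not called of 24 tested (median 0.40). The lumenal chaperones were higher: HSP90B1 (GRP94) was at 1731, 2264 and 1999 CPM in H9 and 956, 879.9 and 947 CPM in H1 (log2 fold change 1.11 ± 0.06 SE, edgeR adjusted p = 2.45e-19), and HSPA5 (BiP) was at 1749, 2087 and 1946 CPM in H9 and 914, 913 and 886 CPM in H1 (log2 fold change 1.09 ± 0.06 SE, edgeR adjusted p = 7.95e-21). DDIT4, a stress-induced inhibitor of mTOR, went the other way at 37.9, 43 and 34 CPM in H9 and 69.3, 66.6 and 119.7 CPM in H1, with the third H1 library well above the others. Cholesterol and fatty acid genes were 17 higher and 11 lower of 31 tested (90.3% called). FASN, fatty acid synthase, was lower, with a log2 fold change of -0.71. Hypoxia and glycolysis genes were 3 higher and 16 lower of 27 tested (median -0.27, 70.4% called). BNIP3 among them was at 31.2, 30.8 and 26.8 CPM in H9 and 59.2, 43.9 and 94.9 CPM in H1, again with the third H1 library highest and with 36.3 CPM in the single H1 library, on the H9 side of the midpoint. The same held for the next largest falls, PFKFB4 (-0.69), PFKFB3 (-0.57) and HK2 (-0.55). For the 3 genes called higher, ENO2, P4HA1 and VEGFA, the single H1 library lay on the H1 side.

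Small shifts ran through large sets. Of 73 tested cytosolic ribosomal protein genes, 63 were lower in H9, RPL9 alone was higher and 9 were not called, with a median of -0.24 and none at 2-fold. Genes of G2 and mitosis were 1 higher (MKI67, 0.26), 13 lower and 10 not called of 24 tested (median -0.16). Their share called was 58.3%, next to 54.3% of all genes. Outside the lists, genes lower by 2-fold or more with a wide difference in CPM included IMPDH2, of guanine nucleotide synthesis, at 157, 176 and 172 CPM in H9 and 350.1, 364 and 375 CPM in H1 (log2 fold change -1.11 ± 0.06 SE, edgeR adjusted p = 3.83e-21), and NORAD, a long non-coding RNA that binds Pumilio proteins, at 132, 139 and 133 CPM in H9 and 325, 294 and 326 CPM in H1 (log2 fold change -1.23 ± 0.06 SE, edgeR adjusted p = 1.51e-22).

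**Figure D4:**
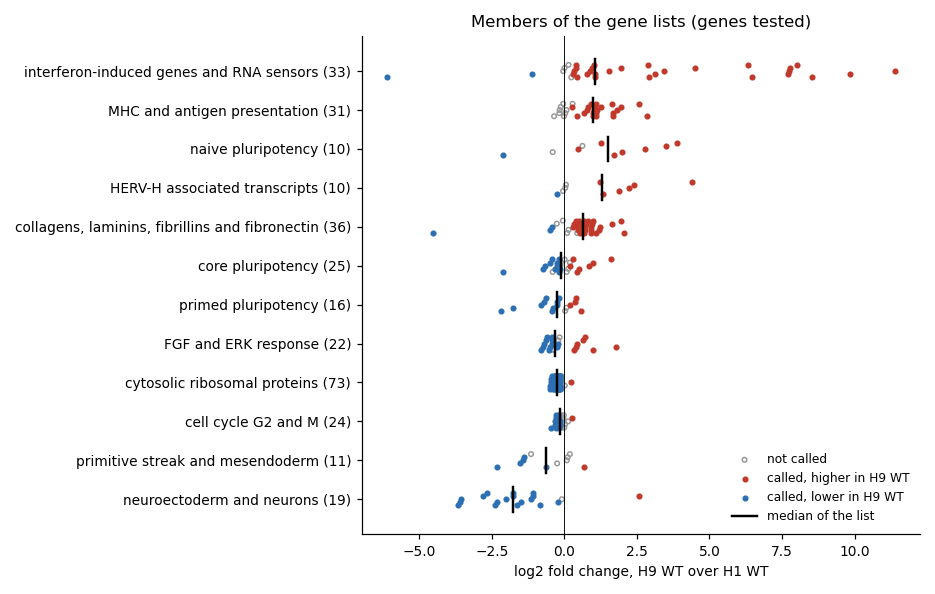
Log2 fold change, H9 WT over H1 WT, of each tested gene in 12 lists (points, number tested in brackets), coloured where called, with the list's median as a black bar. Interferon, MHC, naive, HERV-H and matrix genes have medians above 0, from 0.64 to 1.49, and streak and neural genes below it, at -0.64 and -1.76; OAS2, with no count in H1, is drawn at its fitted value.

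The same line difference was read again in libraries that shared no sample with the wild types: 6 homozygous ZNF263 knockout libraries of H9 (clones 9-1 and 9-D, 3 each) against 3 of H1 (clone 1-10). Their counts were deposited in the same tables as those of their wild types, so line and batch cannot be told apart here either. Between the knockouts 8417 of 14649 genes tested were called (57.5%), with 30.0% of genes higher and 27.4% lower in H9 and 8.85% at 2-fold or more. The fit took no account of clone, so libraries of the same clone counted as replicates of a line. Of the 1044 genes 2-fold or more apart between wild types, 979 were tested in the knockouts: 933 went the same way (95.3%), 796 of them past the threshold (81.3%), and 11 were called the opposite way. Over all genes tested in both, 82.1% went the same way and 53.9% were also called. The genes higher in H9 kept their direction in 97.8% of cases and those lower in 89.5%. The single H1 wild-type library lay on the H1 side of the midpoint between the lines for 83.0% of the 1044 genes and for 68.8% of all.

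For antiviral genes the log2 fold changes between the knockouts of the lines were 7.87 for IFIT1, 9.89 for IFIT2 and -5.61 for MB21D1. POU5F1 (-0.32), KLF4 (3.78), NNAT (-4.59) and LHX2 (-3.57) had values of the same sign as between wild types. Other differences were not the same size. In a model of all 15 replicated libraries the line difference itself changed between wild type and knockout at 1329 of 14410 genes (9.22%), and at 177 of the 1044 (16.95%). The 1044 were picked by the wild-type values that also enter this change, so their share is not comparable with that of all genes. EOMES and MIXL1, lower in wild-type H9, had log2 fold changes of 0.08 and 0.50 between the knockouts, and GATA6 one of 2.33. HHLA1 (4.50) and LINC-ROR (4.30) stood further apart in the knockouts. LINC00664, with 303 counts in the 3 wild-type H9 libraries, had 5 over the 3 libraries of clone 9-1, 1 over those of clone 9-D and 9 over those of the H1 clone 1-10. Knockout and clone cannot be told apart in these.

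**Figure D5:**
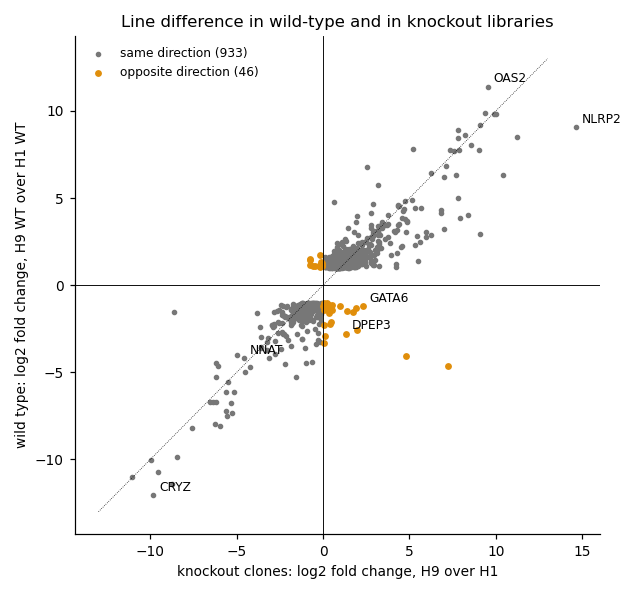
Log2 fold change between the lines in wild-type libraries (vertical, H9 WT over H1 WT) and in knockout clones (horizontal, H9 over H1) for the 979 genes called at 2-fold or more between wild types and tested in the knockouts. Grey points went the same way in both (933) and orange points the opposite way, and the dotted line marks equal values.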

How the data were processed

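RNA sequencing counts of 18 libraries were used as the authors deposited them: whole-number counts per gene symbol, made with STAR and featureCounts on hg19 per the submitters' processing notes, which also name DESeq2; versions, strand setting and counting options are not given in the sources used here. Counts are not normalized. The replicated libraries of H9, those of H1 and the libraries without a replicate number came in separate tables. These tables share 27130 symbols. They were joined by symbol; 25687 matched a RefSeq gene (1347 by an older name), 1200 X- or Y-linked symbols and 1450 of unknown chromosome were left out.

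H9 WT was tested over H1 WT with edgeR 4.0.16 (R 4.3.3): genes kept by filterByExpr (minimum count 10), TMM scaling, quasi-likelihood F test, Benjamini-Hochberg adjustment over 14410 genes, threshold 0.05. CPM are counts scaled by TMM-adjusted totals of the genes tested and compare libraries, not genes. The biological coefficient of variation was 0.0508. Library totals were 12343163 to 15996191 counts; intervals and floors cover counting error only. Line differences between knockouts came from a separate fit of 9 libraries, and their change from a model of 15. Groups follow the sample titles; replicate numbers did not pair libraries (correlations of same-numbered deviations -0.10, -0.09 and -0.04).

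Alternatives were DESeq2 1.42.0, its size factors, no filter and a stricter one (1 CPM in 3 libraries), a replicate block, unknown chromosomes kept, X and Y kept for scaling, all 15 libraries, the single H1 library added, and each library left out. The genes named are POU5F1, NANOG, SOX2, LIN28A, DNMT3B and ZNF263; the 8 largest called rises and falls among protein-coding genes with at least 5 CPM in the higher line; the 6 called 2-fold genes per direction with the largest CPM difference; up to 8 genes per direction on in 1 line only; and up to 4 called members per direction of each list. Not all genes so picked are printed, some members of the lists are not reported here, and others were added by role after their values were seen. The comparison, its members and the 40 gene lists were chosen with earlier results of these data known. Promoter sequences are from RefSeq, build GRCh38.p14. Figures were drawn with matplotlib 3.10.9.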

Additional observations from a re-analysis of the deposited data

Results flagged for a closer look

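A group of genes named above had a line difference that itself changed between wild-type and knockout libraries, by the interaction test in the edgeR model of 15 libraries; the values are the log2 line difference, H9 over H1, among knockouts minus that among wild types. It was wider among knockouts for NLRP2 (5.55, with no count in the H1 knockouts), LINC-ROR (2.43), HHLA1 (2.29), ABHD12B (1.48), LEFTY1 (1.00), MX1 (0.59), LIPA (0.53) and FN1 (0.40), and for C3 (4.36). DUSP6, lower in H9 in both, stood further down among knockouts (-0.64). Genes lower in wild-type H9 had values above 0 for GATA6 (3.55), EOMES (2.37), DPPA3 (1.999), MIXL1 (1.94), FOXA2 (1.88), DDIT4 (1.66), BNIP3 (1.27), IMPDH2 (0.86), SPRY1 (0.62) and FASN (0.24). The same held for the chromosome 19 run of ZNF528-AS1 (3.39), ZNF528 (2.81) and ZNF880 (1.41), and for GDA (11.87), EDNRB (3.42) and THUMPD3 (2.53). Genes higher in wild-type H9 were less so among knockouts for EPCAM (-0.39), FGFR2 (-0.26), LINC00664 (-8.83, a fitted value from very low counts) and ZNF471 (-6.59, a fitted value of a gene under the count filter in the separate knockout fit).

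Antiviral genes that had at most 3 counts over the numbered H1 libraries were read in the single H1 wild-type library, which was kept out of the reported fit. It held 30 counts of OAS2, 15 of OASL, 13 of IFI44, 7 of IFNL1 and 5 of OAS1, above the limit of 3 counts.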

How the results depend on the processing

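Every count of called genes stayed within 1.5 times its value in the alternatives run. Genes called numbered 6787 with DESeq2, 7925 with its size factors, 7950 with no filter, 7715 with the stricter filter and 6986 with the single H1 library added, against 7822. With the replicate block, 7649 genes were called; the same-numbered libraries did not deviate together, so the numbers do not pair them. Leaving out 1 library at a time gave 7046 to 7632 called genes, 717 to 769 of them higher and 342 to 391 lower by 2-fold or more, and 7452 to 8388 between the knockouts, against 8417. Leaving out both libraries numbered 2 was added after seeing the data and changed no count of called genes over all genes tested by 1.5 times. Of all calls, 49.4 to 54.0% were higher in H9 across settings, and the median of all genes stayed between -0.01 and 0.01.

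Of 80 counts of called members per list and direction, 9 moved by more than 1.5 times in settings that left out no library: with DESeq2, neuropeptide genes higher (5, against 8), chromosome 19 zinc finger genes higher (32, against 52), naive markers lower (2, against 1), and histones, heat shock genes and metallothioneins higher (0, against 1 each); with no filter, naive markers lower (3) and structured RNAs lower (2, against 1); with the stricter filter, structured RNAs lower and metallothioneins higher (0 each); with all 15 libraries, naive markers lower (2); with the single H1 library added, streak genes lower (3, against 5), BMP genes higher (3, against 5), structured RNAs lower and heat shock genes higher (0 each). With 1 library left out, 8 moved: neuropeptide genes higher (5 to 8), naive markers lower (1 to 3), 20q11.21 genes lower (3 to 6, against 5), and to 0 from 1 histones, heat shock genes and metallothioneins higher and structured RNAs and trophoblast markers lower. Without both libraries numbered 2, neuropeptide genes higher fell to 5, and histones and heat shock genes higher and structured RNAs lower fell to 0. Single calls were less stable. SOX2 was called under DESeq2, its size factors, all 15 libraries, the single H1 library added and without the first H9 library (log2 fold changes -0.13, -0.13, -0.12, -0.14 and -0.13). GATA6 lost its call with DESeq2 (-1.25), with the single H1 library added (-0.92) and when 1 of 3 libraries was left out. Some genes near 0 that were not called changed sign. TLR3 was at -0.0058 with DESeq2, -0.011 with its size factors and -0.0064 with the single library added, at -0.027 without both libraries numbered 2, and between -0.20 and 0.24 with 1 library left out. With 1 library left out, NLRC5 ranged from -0.21 to 0.097, HLA-DRA from -0.13 to 0.31, IFI35 from -0.051 to 0.31, LINC00458 from -0.17 to 0.034, ESRG from -0.048 to 0.12, CD74 from -0.026 to 0.083 and IFITM2 from -0.10 to 0.0079. Without both libraries numbered 2, NLRC5 was at 0.045 and IFITM2 at 0.027, and with the single library added NLRC5 was at 0.0063 and LINC00458 at 0.18. Genes under about 1 CPM rest on few counts, and the design has 1 line on each side.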

Other observations

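Small nucleolar RNAs were higher in H9 as a class: of 113 tested, 70 were called, 39 were higher by 2-fold or more, none was lower by that much, and the median log2 fold change was 0.82. The knockout libraries and the single H1 wild-type library held the same split by line, at 349.5 to 375 CPM in the H9 clones, 213 to 237 in clone 1-10 and 219.5 in the single library. Genes of the RefSeq type microRNA took 177 to 189 CPM in H9 and 138 to 141 in H1, and which transcripts those reads came from was not tested. Most small nucleolar RNAs lack a poly(A) tail, so their counts also depend on carry-over through selection, whose part was not tested.

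Counts of called members in the remaining lists follow, to be read against 28.7% higher and 25.6% lower (54.3% called) over all genes. Among signalling lists, NODAL and TGF-beta genes were 10 higher and 4 lower of 22 tested, WNT response genes 7 higher and 4 lower of 18, and BMP response genes 5 higher and 4 lower of 14. Polycomb, DNA methylation and TET genes were 4 higher and 14 lower of 28. Genes of the p53 response were 5 higher and 7 lower of 23, immediate early genes 8 higher and 9 lower of 21, heat shock genes 1 higher and 8 lower of 18, and metallothioneins 1 higher and 0 lower of 5. Neural crest markers were 1 higher and 3 lower of 8 tested, trophoblast and amnion markers 2 higher and 1 lower of 6, and germline genes 3 higher and 4 lower of 9, with 27 measured germline genes under the count filter. Neuropeptide and secretory granule genes were 8 higher and 4 lower of 19, replication-dependent histones 1 higher and 3 lower of 17, and structured RNAs without a poly(A) tail 4 higher and 1 lower of 6. Mitochondrial ribosomal proteins were 3 higher and 32 lower of 76, and nuclear-encoded oxidative phosphorylation subunits 6 higher and 22 lower of 70. Zinc finger genes of chromosome 19 were 52 higher and 33 lower of 227. Genes listed as variable between people were 12 higher and 5 lower of 25, and genes listed as variable between pluripotent lines 5 higher and 11 lower of 30. The share called was below that of all genes for mitochondrial ribosomal proteins (46.1%), oxidative phosphorylation subunits (40.0%), zinc finger genes (37.4%), histones (23.5%) and metallothioneins (1 of 5), and near it for p53, heat shock, neural crest, trophoblast and line-variable genes (50.0 to 53.3%).

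Further genes, chosen after their values were seen, stood wide apart outside every list. KRT17, a keratin, was at 39.2, 36 and 47.4 CPM in H9, against 0.507, 0.546 and 0.609 CPM in H1 (log2 fold change 6.18 ± 0.18 SE, edgeR adjusted p = 3.24e-30). The single H1 wild-type library read KRT17 at 4.61 CPM, and the log2 fold change with it in the fit was 4.83. C3, the central complement component, was at 35, 31.5 and 39.8 CPM in H9 and 1.27, 3.07 and 2.06 CPM in H1 (log2 fold change 4.01 ± 0.15 SE, edgeR adjusted p = 9.38e-26). CYP26A1, which degrades retinoic acid, was at 28.2, 26.7 and 31.1 CPM in H9 and 4.99, 4.77 and 3.96 CPM in H1 (log2 fold change 2.65 ± 0.12 SE, edgeR adjusted p = 1.51e-22). In the other direction, THUMPD3, an RNA methyltransferase, was at 4.3, 4.6 and 4.56 CPM in H9, against 54.8, 55.2 and 52.1 CPM in H1 (log2 fold change -3.59 ± 0.10 SE, edgeR adjusted p = 2.51e-30), and stood at -1.06 between the knockouts. EDNRB, the endothelin B receptor, was at 1.7, 2.63 and 3.06 CPM in H9 and 24.1, 20.3 and 30.9 CPM in H1 (log2 fold change -3.34 ± 0.16 SE, edgeR adjusted p = 1.16e-21), but at 0.08 between the knockouts. GDA, guanine deaminase, was lower in H9 between wild types (-4.66) and higher between the knockouts (7.24).

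The libraries deposited without a replicate number spread widely in antiviral genes. IFIT1 had 1864 counts in the single library of the heterozygous H1 knockout 1-5, 19 in that of the homozygous knockout 1-10 and 429 in the single H1 wild type. IFIT2 had 1067, 3 and 286 counts in the same order, and OAS2 had 81, 0 and 30. With 1 library each these are values of single libraries.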
